A study of Mus musculus with 2031 samples.

Results

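AST3 is one of the 5 astrocyte subtypes that the study defined by clustering single astrocytes of the adult mouse cortex and hippocampus. Its members were the cells that the study's own list of cells assigns to AST3, and 452 of the 1781 typed astrocytes carried that name. These came from 2030 cells with a count file, which also held vessel and other brain cells. All mice were C57BL/6J at postnatal day 56, with no genetic change and no treatment in any group. The cells were released with papain, sorted as ACSA-2 positive (an antibody to ATP1B2 on the astrocyte surface), O1 negative and 7-AAD negative, and prepared one by one with Smart-seq2, a full-length method that reads polyadenylated RNA, with ERCC spike-in RNA in each well. There were 4 cell suspensions, named here Cortex 1, Cortex 2, Hippocampus 1 and Hippocampus 2. Each cortical suspension came from 1 animal, both of the same litter, and each hippocampal suspension was a pool of littermates of its own litter, so region, litter and pooling cannot be told apart. Hippocampus 1 held 65 AST3 cells and Hippocampus 2 held 82, and the rest came in nearly equal numbers from the cortical suspensions.

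Astrocytes take up glutamate, GABA and potassium that neurons release, store glycogen, supply lipids, and secrete proteins that shape synapses. Their identity depends in part on Notch signalling, in which a cleaved receptor acts with RBPJ on the Hes and Hey genes, and on fibroblast growth factor signalling, which acts on Etv5. Agt encodes angiotensinogen, the precursor of the angiotensin peptides. Gabrg1 encodes a subunit of the GABA-A receptor, Il33 an alarmin cytokine that astrocytes release and that acts on microglia, and Etv5 an ETS transcription factor. These 4 genes were taken as the markers of AST3. Agt is not in the study's AST3 table but in its AST1 table, and the study also defines AST1 by high Gfap and Agt.

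The subtype names were made by clustering these same counts. Differences in gene level between AST3 and the other astrocytes therefore describe what the clustering grouped, and they do not test it. What the clustering did not take as input, such as the region of a cell, was tested over the 4 suspensions, on cells whose names came from these counts. A gene's level is given as CPM, the count of a gene scaled to a total of 1000000, of the summed counts of all AST3 cells, or of all other astrocytes, of 1 suspension, in the order Cortex 1, Cortex 2, Hippocampus 1 and Hippocampus 2. The AST3 cells held 695351 to 3056039 gene counts each, with a median of 1659866, against a median of 1425276 in the other astrocytes, and their sums held 108183293 to 268403731 counts per suspension. No cells shared identical counts. The other astrocytes were mostly AST2 in cortex (78.2% and 81.3%) and mostly AST1 in hippocampus (82.6% and 79.2%), so a comparison with all of them sets AST3 against different cells in each region.

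The 4 markers were higher in AST3 as a group, but no single one of them marked an AST3 cell. Agt (ENSMUSG00000031980, chr8:124556534-124569706 on GRCm38) lay at 360.5, 306.04, 1284 and 1044 CPM in AST3 and at 213.3, 164.5, 817.3 and 795.5 CPM in the other astrocytes, higher in AST3 in 4 of 4 suspensions. Il33 (chr19:29925114-29960718) lay at 356.3, 378.9, 425.9 and 462.03 CPM against 250.4, 310.8, 141.96 and 113.7 CPM, and Etv5 (chr16:22381309-22439719) at 216.95, 256.8, 485.9 and 308.5 CPM against 186.4, 200.2, 200.9 and 208.8 CPM, both again higher in each suspension. Gabrg1 (chr5:70751047-70842617) lay at 431.9, 335.4, 431.5 and 640.1 CPM against 298.5, 392.96, 315.5 and 243.4 CPM and was lower in AST3 in Cortex 2. The log2 differences were 0.67 (SE 0.11) for Agt, 1.10 (0.34) for Il33, 0.60 (0.20) for Etv5 and 0.54 (0.27) for Gabrg1. Cells that held Agt with a count above 0 made up 56.5%, 49%, 84.6% and 80.5% of the AST3 cells of the 4 suspensions, against 42.1%, 43.6%, 67.2% and 69% of AST1 cells and 25%, 21.6%, 60% and 36.4% of AST2 cells, and over all suspensions 0.746% of the mural cells of vessels, which should lack it. Of the AST3 cells, 50% held at least 3 of the 4 markers, against 24.4% of AST1 and 20.9% of AST2 cells. The share was lowest in Cortex 2, at 37.1%, and lay between 55.2% and 60% in the other suspensions.

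In tissue sections, the study looked for AST3 as cells with Agt and with little or no Unc13c and Gfap. It stained for Gfap and for Unc13c in separate sets, each with Agt and Slc1a3. Here a cell met the conditions with a count of Agt and no count of Unc13c or Gfap. This is a stricter and joint rule on read counts, so the shares below are not those of the stained sections. Agt with neither Unc13c, a regulator of vesicle release, nor Gfap, the intermediate filament of astrocytes, was present in 32.7% of AST3 cells, 18.6% of AST1 cells and 14.1% of AST2 cells. Of all astrocytes that met these conditions, 41.9% were AST3 (148 cells), 34.6% AST1 and 22.1% AST2. In Cortex 1 and 2, AST3 made up 54.4% and 44% of such cells. In Hippocampus 1 and 2 it made up 29.1% and 36.3%, and AST1 was the most frequent there (62% and 53.8%). Gfap had a count in 28.6%, 33.1%, 55.4% and 54.9% of the AST3 cells of the 4 suspensions, against 24.6%, 32.7%, 72.7% and 75.2% of AST1 cells and 19.6%, 14.1%, 30% and 45.5% of AST2 cells. AST3 thus lay above AST2 in each suspension and below AST1 in hippocampus. In cortex it lay near AST1, of which only 57 and 55 cells were present. These shares are at full depth, where the median AST3 cell held more counts than the median other astrocyte.

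AST3 cells held the general genes of astrocytes and few reads of other cell types. Slc1a3, Slc1a2, Gja1 and Atp1b2 each had a count in 100% of AST3 cells, Aqp4 in 96.2% and Gjb6 in 96.9%. The summed level of 9 mural markers was 87.7 to 153.3 CPM in AST3 and 99.6 to 194.8 CPM in the other astrocytes, that of 8 microglial markers 62.8 to 131.1 against 83.5 to 133.5 CPM, that of 8 endothelial markers 0.0163 to 4.63 against 2.10 to 10.6 CPM, and that of 10 neuronal markers 13.9 to 42.3 against 19.8 to 37.7 CPM. The 12 oligodendrocyte and precursor markers summed to 535 to 688 CPM in AST3 and 408 to 498 CPM in the others. Most of this was Cnp, at 534.4, 507.3, 611.5 and 486.4 CPM in AST3 and 333.7, 316.9, 390.5 and 432.8 CPM in the other astrocytes, which had a count in 66.8% of AST3 cells. Mog, which defines oligodendrocytes, had a count in 0.221% of AST3 cells, and Sox10 and Pdgfra in 0 of 452, which allows a share of up to 0.664% by counting error alone.

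AST3 made up a larger share of the astrocytes in both cortical suspensions than in both hippocampal ones. The paper, by contrast, describes AST3 as evenly spread between the regions. The shares were 33.4% in Cortex 1 (of 461 astrocytes, 95% Wilson interval 29.3 to 37.8), 30.3% in Cortex 2 (of 499, 26.4 to 34.4), 16.5% in Hippocampus 1 (of 393, 13.2 to 20.5) and 19.2% in Hippocampus 2 (of 428, 15.7 to 23.2). The means were 31.8% ± 2.22 in cortex and 17.8% ± 1.85 in hippocampus (SD, n = 2 suspensions each), a hippocampal minus cortical difference of -14.0 percentage points, with an exact two-sided permutation p of 0.3333, the smallest that 2 against 2 suspensions can give. Each suspension was spread over 8 plates, and AST3 was found on all 32. The share by plate ran from 18.3% to 43.2% in Cortex 1, 18.5% to 36.5% in Cortex 2, 7.69% to 23.1% in Hippocampus 1 and 13.1% to 32.1% in Hippocampus 2, so single plates overlapped between the regions although the suspensions did not.

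**Figure D1:**
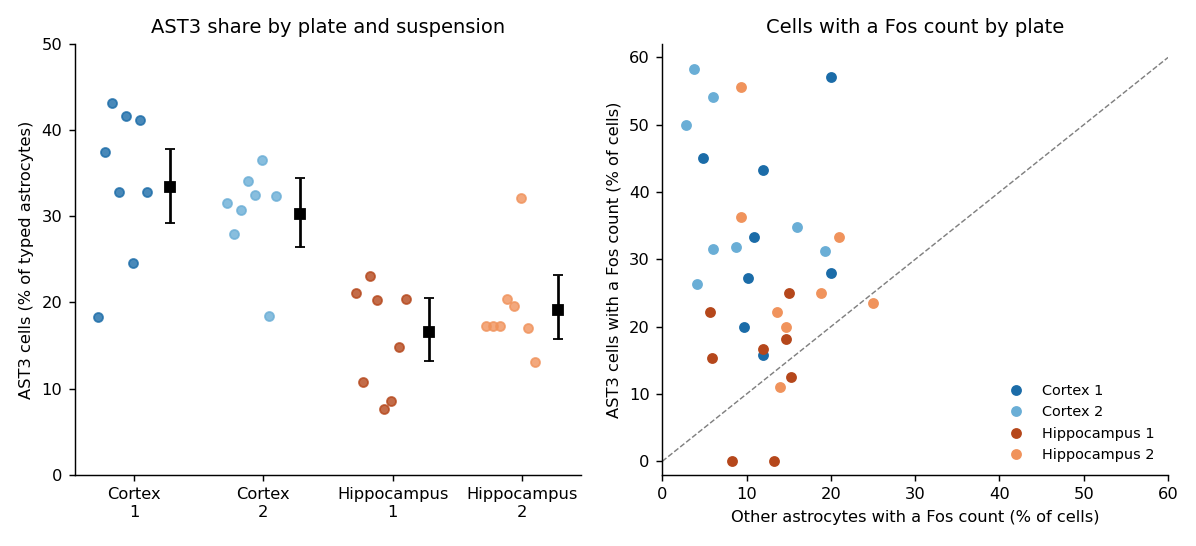
Left, AST3 cells as a percent of typed astrocytes, with circles for the 8 plates of a suspension and a square with its 95% Wilson interval for the whole suspension. Right, cells with a Fos count as a percent of AST3 cells (y axis) and of the other astrocytes (x axis) on each of the 32 plates, with the line of equality, and 27 plates lie above it.

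Readouts that are not levels of single genes were set beside each other within each suspension. The median log2 ratio of gene counts to ERCC counts, a relative measure of the RNA recovered per cell, was higher in AST3 by 0.460, 0.567, 0.0709 and 0.127, a mean of 0.306 ± 0.244 (SD, n = 4). With every cell drawn down to 500000 gene counts, the median AST3 cell held 2409.5, 2383, 1898 and 1968 genes with a count, against 1959, 1865, 1872 and 1920.5 in the other astrocytes, a mean excess of 260.5 ± 260 genes (SD). The median percent of reads that aligned outside exons was 10.7, 9.55, 12.1 and 11.9% in AST3 and 13.5, 12.9, 12.9 and 13% in the others, a mean difference of -2.02 ± 1.30 points. Each of these went the same way in 4 of 4 suspensions. The ERCC ratio and the reads outside exons each gave an exact two-sided sign-flip p of 0.125, the smallest that 4 suspensions can give, while the number of genes comes from the counts that were clustered and is a description. All of them were larger in the cortical suspensions than in the hippocampal ones. Against AST1 and AST2 singly, each readout of AST3 differed in the same direction in every suspension. In Cortex 1 and 2 the median percent outside exons was 10.99 and 10.59% in AST1 and 14.43 and 13.17% in AST2. In Hippocampus 1 and 2, the AST4 subtype went further than AST3, at 11.02 and 11.65% outside exons and 2217 and 2399.5 genes. Its median log2 ratio to ERCC counts was 4.64 and 4.81, against 4.38 and 4.51 in AST3. AST5 held the lowest percent outside exons, at 1.48, 1.66 and 1.72% in Cortex 1, Cortex 2 and Hippocampus 1 (8, 10 and 6 cells). Its median cell held fewer genes than that of AST3, at 1645.5, 1345 and 1546.5, and its ratio to ERCC counts was lower (4.18, 3.85 and 3.90).

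Gene by gene, no difference between AST3 and the other astrocytes passed the test. By edgeR's quasi-likelihood test with the suspension as a term, 0 of 19132 genes (0%) passed an adjusted p of 0.05, and 891 (4.66%) lay under 0.05 unadjusted. On the same sums DESeq2 called 1591 genes (394 higher, 1197 lower), with 14.4% under 0.05 unadjusted. On the 3076 genes found in more than 25% of cells, edgeR called 0, with 9.85% under 0.05 unadjusted, and limma, fitted to mean log values per cell and not to the sums, called 0, with 16.6%. Fold changes between AST3 and the other astrocytes are therefore values with their errors and not calls. To name genes without a call, those found in more than 25% of AST3 cells or of the others were taken where AST3 was at least 1.28-fold (a natural log ratio of 0.25) higher, or lower, in each of the 4 suspensions. This held for 19 of the 3076 genes upward (0.618%) and 12 downward (0.39%), and the rule was chosen after the test had called none. With no limit on size, AST3 was higher in 4 of 4 suspensions for 4.86% of all genes tested and lower for 9.86%, and among the 3076 frequent genes for 11.3% and 8.71%. Counts of list members higher or lower in 4 of 4 suspensions stand beside these shares, and no test compared a list with other genes. More genes had a count in AST3. At 500000 counts per cell, 2848 of the 3076 genes (92.6%) were present in a larger share of AST3 cells than of the others, by a median of 5.87 percentage points, and the number of genes and the share of reads outside exons differed in the same suspensions, whose part in this was not tested.

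AST3 was also set beside AST1 and AST2 singly, as a description, since the 3 names come from clustering these counts. The levels of these 3 subtypes come from a joint scaling and differ slightly from those above. edgeR marked 4 of 18406 genes against AST1 (0.0217%) and 1 against AST2 (0.00543%), and nothing is read from these counts. Igfbp2 (chr1:72824503-72852474), which binds insulin-like growth factors, lay at 547.8, 617.9, 929.7 and 881.9 CPM in AST3 and at 193.8, 110.4, 226.5 and 198.4 CPM in AST1, without overlap (log2 difference 2.02). Cst3 (chr2:148871722-148875692), the protease inhibitor cystatin C, lay at 10357, 10016, 9841 and 10600.2 CPM against 16869.8, 16941, 19372 and 19742 CPM (-0.83). Hsd11b1 (chr1:193221634-193264075), which regenerates active glucocorticoid, differed by -1.26, and Apoe (chr7:19696109-19699188), the main apolipoprotein of the brain, by -0.39. Apoe was also the gene marked against AST2, at 30627, 31102, 32785 and 34816 CPM in AST3 and 20608, 22018, 22552 and 26106 CPM in AST2 (log2 difference 0.51). Apoe in AST3 thus lay between the other two in every suspension. None of these 4 genes was marked when any 1 suspension was left out, a fit with fewer samples. Under an unadjusted p of 0.05 lay 2.42% of all genes against AST1 and 2.53% against AST2, and of the frequent genes 6.76% and 10.6% in edgeR and 14% and 18.8% in limma.

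The mean level of AST3 lay near AST1 in some genes, near AST2 in others, and above both in a further set. Agt was at 755.6 ± 496.6 CPM in AST3 and 724.3 ± 290.3 CPM in AST1 (SD, n = 4), and at 256.1 ± 151.1 CPM in AST2. These means hide a difference between regions, since Agt was lower in AST3 than in AST1 in cortex (361.4 and 308.4 against 492.6 and 454.2 CPM) and higher in hippocampus (1299.8 and 1052.8 against 963.9 and 986.6 CPM). In the reverse pattern, Igfbp2 was at 744.3 ± 189.6 CPM in AST3 and 790.6 ± 186.2 CPM in AST2, Luzp2, a leucine zipper protein of unsettled function, at 1491 ± 88.2 and 1389 ± 330.4 CPM against 771.96 ± 143.2 CPM in AST1, and Pygm, the muscle-type glycogen phosphorylase that also serves astrocytes, at 494.2 ± 123.9 and 463.7 ± 24.6 against 230.6 ± 40.5 CPM. Cst3 was likewise closer to AST2, at 8751 ± 773.9 CPM there. Above both in the mean stood Hes5 at 467.3 ± 165.9 CPM (278.7 ± 126.3 in AST1 and 251.5 ± 100.01 in AST2), Adgrg1 at 1232 ± 315.6 CPM (793.99 ± 83 and 801.3 ± 179.5), Ccn1 at 442.8 ± 125.2 CPM (128.7 ± 31.5 and 249.2 ± 86.5) and Fos at 556.3 ± 106.4 CPM (53.1 ± 21.3 and 145.8 ± 126.1). In Hippocampus 2, AST2 was the higher one for Hes5 (330.6 against 295.6 CPM in AST3) and Ccn1 (365.6 against 327.2 CPM). Among AST1, AST2 and AST3 alone, Adgrg1 and Fos were highest in AST3 in each suspension. Only 10 and 22 AST2 cells stood behind the hippocampal AST2 sums, and 57 and 55 AST1 cells behind the cortical AST1 sums.

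**Figure D2:**
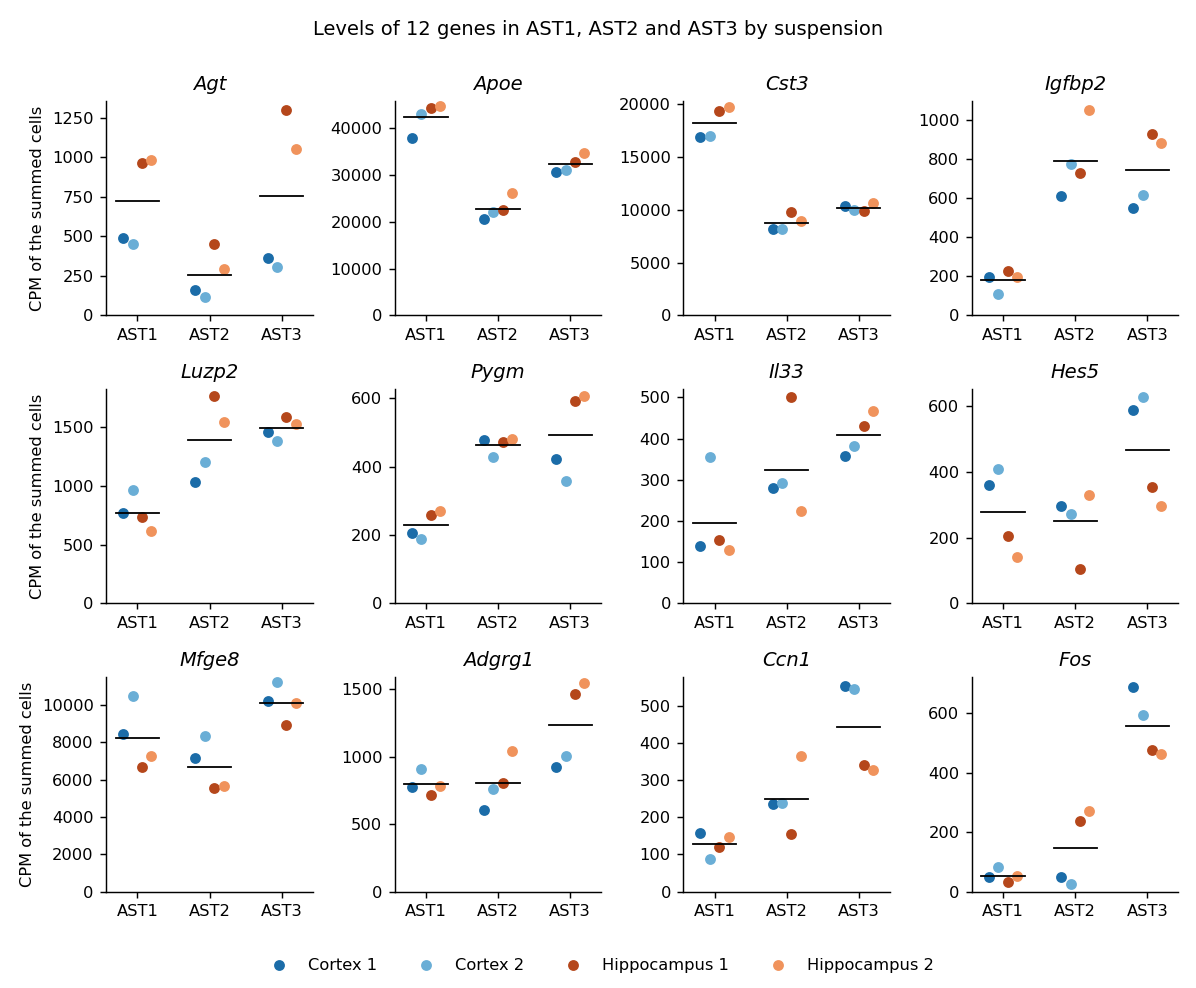
Level of 12 genes in AST1, AST2 and AST3 (y axis, CPM of the summed cells on a linear scale from 0), with a point for each of the 4 suspensions and a line for their mean. The mean of Agt in AST3 is near that of AST1, those of Igfbp2, Luzp2, Pygm and Cst3 are nearer to AST2, and the means of Hes5, Adgrg1, Ccn1 and Fos are highest in AST3.

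Fos had the largest fold among the 19 genes of the upward rule, and Ccn1 was the only other immediate early gene among them. Cells switch such genes on quickly after a stimulus, without new protein synthesis. Fos and Jun form the AP-1 transcription factor, Dusp1 is a phosphatase that shuts off MAP kinases, and Ccn1 (also called Cyr61) is a secreted matrix protein. Many such promoters hold the core TGACG of the sites that CREB and AP-1 related factors bind. Windows of 250 bases before to 50 bases after the start were read for 3 of these genes from RefSeq (GRCm38.p6), with TGACG on either strand in capitals, including the palindrome in which a pair of Dusp1 matches overlap:
Fos, chr12:85473640-85473939, plus strand: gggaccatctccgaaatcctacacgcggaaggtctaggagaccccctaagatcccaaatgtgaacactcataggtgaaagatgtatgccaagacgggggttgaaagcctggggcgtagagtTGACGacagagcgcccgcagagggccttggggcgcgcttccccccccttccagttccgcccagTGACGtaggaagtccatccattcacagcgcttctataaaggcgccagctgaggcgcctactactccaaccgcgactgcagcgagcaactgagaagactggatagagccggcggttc
Dusp1, chr17:26508423-26508722, minus strand: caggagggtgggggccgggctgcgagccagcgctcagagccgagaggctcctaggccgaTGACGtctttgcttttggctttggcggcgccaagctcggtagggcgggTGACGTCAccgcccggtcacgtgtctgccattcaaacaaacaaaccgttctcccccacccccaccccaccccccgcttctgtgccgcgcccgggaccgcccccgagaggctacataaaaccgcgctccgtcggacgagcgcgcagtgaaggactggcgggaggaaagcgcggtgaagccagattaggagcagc
Ccn1, chr3:145649936-145650235, minus strand: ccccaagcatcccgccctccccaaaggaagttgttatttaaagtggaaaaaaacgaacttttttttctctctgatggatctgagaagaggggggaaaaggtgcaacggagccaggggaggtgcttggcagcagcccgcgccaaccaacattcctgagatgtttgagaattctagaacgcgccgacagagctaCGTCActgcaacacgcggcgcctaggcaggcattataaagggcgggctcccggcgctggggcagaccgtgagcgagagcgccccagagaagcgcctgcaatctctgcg
Fos held 2 matches, the nearer 66 bases before the start, Dusp1 held 3, and Ccn1 held 1, on the reverse strand 58 bases before the start. Of 32851 such windows over the genome, 20.8% held TGACG and 5.01% held it at least 2 times. It was present in 17 of the 31 windows found for 25 genes of the early response list (54.8%), and in 10 of 45 for the study's AST3 table (22.2%). A match is a run of letters and not a binding site.

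Fos (chr12:85473890-85477273) lay at 687.8, 589.8, 471.5 and 459.9 CPM in AST3 and at 104.8, 32.9, 139.4 and 273.4 CPM in the other astrocytes, 6.56, 17.9, 3.38 and 1.68 times as high (log2 difference 2.33, SE 0.62). The groups did not overlap, and the gap was widest in cortex. Ccn1 (chr3:145646976-145649981) lay at 554.6, 542.2, 337.7 and 324.4 CPM against 214.6, 211.2, 114.98 and 213.04 CPM (1.22, SE 0.18). Dusp1 (chr17:26505590-26562128) lay at 532.1, 474.8, 307.7 and 269.7 CPM against 136.2, 130.6, 158.96 and 212.8 CPM, also higher in each suspension. Jun (chr4:95049034-95052222) lay at 384.4, 293.5, 99.2 and 222.8 CPM against 104.1, 77.8, 148.1 and 132.1 CPM and was lower in AST3 in Hippocampus 1. Of the 25 genes of the list that were tested, 6 were higher in AST3 in 4 of 4 suspensions (Fos, Ccn1, Dusp1, Klf4, Nr4a1 and Myc) and 1 was lower (Gadd45b, with a count in 0.885% of AST3 cells), with a median log2 difference of 0.41 against -0.23 over all 19132 genes. Of all genes tested, 4.86% were higher in 4 of 4 suspensions and 9.86% lower, and of the frequent ones 11.3% and 8.71%. Among the genes found in more than 25% of cells the medians were 1.02 for 7 of the list and 0.01 for all 3076. Ier2 and Junb, 2 common early genes, were higher in AST3 in both cortical suspensions and lower in Hippocampus 2. Heat shock genes, a separate list, had a median of -0.02 in 12 tested genes, with 1 higher and 2 lower in 4 of 4 suspensions. Their summed level was nonetheless higher in AST3, at 3146, 3363, 3296 and 3308 CPM against 3043, 2967, 3034 and 2959 CPM.

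Fos counts came from a minority of the AST3 cells. A Fos count was present in 33.8% (52 cells), 39.1% (59 cells), 16.9% (11 cells) and 28% (23 cells) of the AST3 cells of each suspension in turn, 32.1% in all, against 11.7% of the other astrocytes and 68.7% of mural cells. A Fos count was not particular to AST3. AST4, a hippocampal subtype, held one in 39% of 41 cells in Hippocampus 1 and 37.5% of 48 cells in Hippocampus 2, larger shares than those of AST3 there. The AST3 share was the higher one on 27 of 32 plates, 8 of 8 in each cortical suspension, 5 of 8 in Hippocampus 1 and 6 of 8 in Hippocampus 2. By the date of reverse transcription it was higher on 7 of 7, 8 of 8, 5 of 6 and 6 of 8 dates. The 10 AST3 cells with most Fos held 29.1% of its counts, against 17.9% for Agt, and for Egr1 the 10 highest cells held 58.2%.

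AST3 cells with Fos were set beside AST3 cells without it, all drawn down to 500000 counts, and beside the other astrocytes without Fos. This split was made after the values were seen and is a description. Jun was present in 74.5%, 25.1% and 19.1% of these cells in turn, Dusp1 in 68.3%, 27.7% and 17.8%, Ccn1 in 67.6%, 38.4% and 24.7%, and Egr1 in 30.3%, 2.28% and 0.682%. These shares are pooled over the suspensions. AST3 cells with Fos held each of these 4 genes more often than those without in each suspension, but not every early gene behaved so in hippocampus. Ier2 was present in 0% of AST3 cells with Fos there, against 1.85% and 3.39% of those without, and in Hippocampus 1 Klf6 was present in 0% against 16.7% and Zfp36 in 0% against 7.41%. Pooled in the same way, Hes5 was present in 90.3%, 82.7% and 56.4%, Il33 in 59.3%, 58.3% and 34.1%, Agt in 61.4%, 62.2% and 43.2%, and Gabrg1 in 71%, 67.1% and 47.4%. Some gaps within hippocampus were wider. In Hippocampus 2 Agt was present in 91.3% of AST3 cells with Fos and 74.6% of those without, and Il33 in 78.3% and 55.9%, and in Hippocampus 1 Gabrg1 was present in 81.8% and 63%. The level of Hes5 did differ, at a mean of 660.96 CPM in AST3 cells with Fos, 424.4 CPM in those without and 232.1 CPM in the other astrocytes without Fos, and it was higher with Fos in 4 of 4 suspensions. With every cell that had a Fos count left out of both sides, the log2 difference was 0.03 for Jun, 0.26 for Ccn1, 0.73 for Dusp1 and 5.08 for Egr1, which few of these cells held (1.56 with all cells), and it was 0.75 for Hes5, 1.05 for Il33, 0.60 for Agt and 0.47 for Gabrg1. AST3 cells with Fos also had more reads outside exons in each suspension, a median of 11.6%, 11%, 13.2% and 13.3% against 10.1%, 8.74%, 11.8% and 11.2% in those without, whose part in the early genes was not tested.

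**Figure D3:**
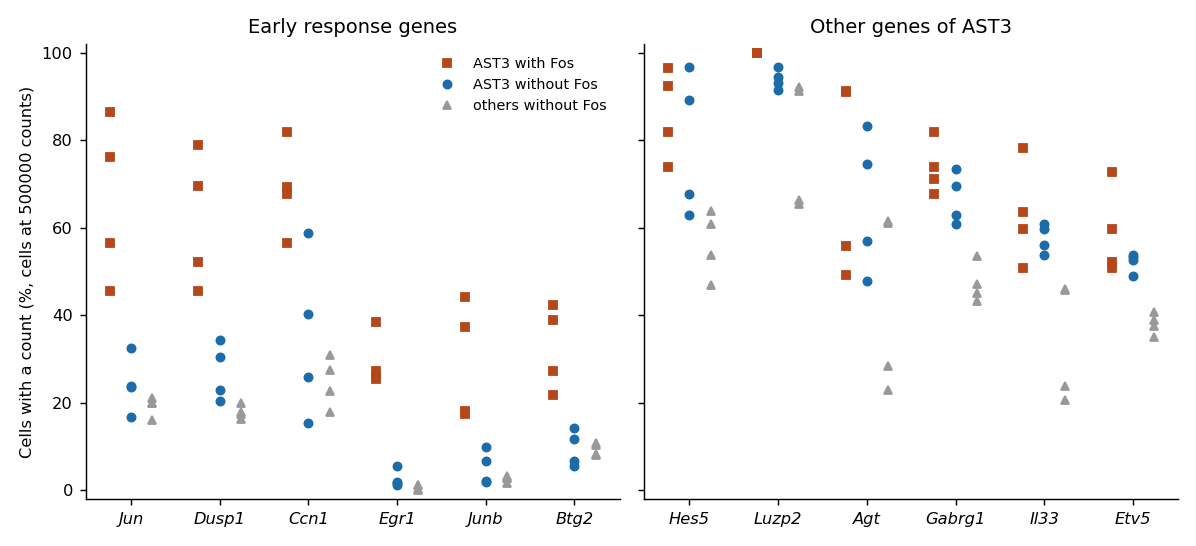
Share of cells with a count of each gene (y axis, percent of cells drawn down to 500000 counts) in AST3 cells with Fos, AST3 cells without Fos and other astrocytes without Fos, with a point for each suspension. The 6 early genes drawn on the left are most frequent in AST3 cells with Fos in each suspension, and on the right the gap between AST3 cells with and without Fos varies by suspension, with Hes5 at 81.8% against 63% in Hippocampus 1.

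Several Notch targets lay higher in AST3, and Hes5 did so by a similar amount in each suspension. Hes5 is a transcriptional repressor that keeps neural progenitors from neuronal fate, and Notch acts on it through RBPJ, whose sites hold the core TGGGAA. The RefSeq window (GRCm38.p6), with that core on either strand in capitals, reads:
Hes5, chr4:154960673-154960972, plus strand: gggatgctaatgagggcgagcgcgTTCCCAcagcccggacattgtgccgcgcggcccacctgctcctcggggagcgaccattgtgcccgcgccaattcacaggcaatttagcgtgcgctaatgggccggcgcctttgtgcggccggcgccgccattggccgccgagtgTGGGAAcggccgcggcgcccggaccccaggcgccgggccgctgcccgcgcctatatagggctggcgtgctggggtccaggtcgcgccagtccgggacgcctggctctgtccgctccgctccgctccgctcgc
It held 2 matches, the farther on the reverse strand and the nearer, 82 bases before the start, on the forward strand. TGGGAA was present in 25.6% of the 32851 windows and at least 2 times in 3.79%, and in 18 of 45 windows of the AST3 table (40%).

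Hes5 (chr4:154960923-154962371) lay at 588.4, 622.9, 351.7 and 293.04 CPM in AST3 and at 302.8, 288.7, 197.3 and 165.4 CPM in the other astrocytes, between 1.77 and 2.16 times as high in each suspension (log2 difference 0.93, SE 0.09). It had a count in 85.2% of AST3 cells, 57.6% of the others and 1.49% of mural cells. Hes1, a related repressor, lay at 122.2, 98.6, 77.3 and 133.8 CPM against 100.2, 70.8, 43.9 and 64.3 CPM, and Nrarp, a feedback inhibitor of the Notch complex, at 46.5, 35.7, 43.7 and 31.4 CPM against 16.8, 30.5, 14.4 and 14.9 CPM. The smaller differences were those of Dtx1 (0.30), a ubiquitin ligase of the pathway, and Hey1 (0.23). Among the receptors, Notch1 differed by -0.11 (SE 0.12) and Notch2 lay lower in AST3 in each suspension, at 168.9, 160.7, 232.5 and 191.1 CPM against 183.1, 183.6, 362.3 and 415.9 CPM. Notch3, which mural cells hold, had a count in 5.53% of AST3 cells and differed by 0.41 (SE 0.82). Of the 22 tested genes of the pathway, 9 of them frequent, 7 were higher and 2 lower in 4 of 4 suspensions, with a median of 0.14, where 4.86% of all genes tested and 11.3% of the frequent ones were higher. Without the cells with Fos, Hes1 differed by 0.27, Nrarp by 1.07, Dtx1 by 0.23 and Hey1 by 0.07.

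The study's own AST3 table holds matrix and adhesion genes among others. That table was chosen on these cells, so its direction is no independent evidence. All 36 of its genes were tested, 27 were higher in AST3 in 4 of 4 suspensions and 0 were lower in all, with a median log2 difference of 0.66. At equal depth all 36 were present in more AST3 cells than others, by a median of 18.6 points, where 92.6% of all frequent genes were, by a median of 5.87 points. Mfge8 (chr7:79133768-79149060), a secreted bridge between dying cells and phagocytes, lay at 10178, 11143, 8825 and 10025 CPM against 7187, 8505, 6131 and 6492 CPM, but it is outside that table. Adgrg1 (chr8:94974751-95014217), an adhesion G protein receptor for collagen III, lay at 916.97, 996.7, 1443 and 1529.5 CPM against 611.2, 764.1, 700.03 and 747.2 CPM. Vcam1, a cell adhesion molecule, differed by 0.44, Prelp, a matrix proteoglycan, by 0.64, and Fam20c, a kinase of secreted proteins, by 0.90, each higher in 4 of 4 suspensions. Spon1, a matrix protein, lay at 155.5, 122.5, 442.1 and 423.1 CPM against 92.3, 124.6, 60.4 and 95.9 CPM, with overlap in cortex. Lrtm2 and Pygm were higher in AST3 in hippocampus alone, and Ppp1r3g, a glycogen-targeting subunit of protein phosphatase 1, in cortex alone, with 376.6, 371.6, 45.6 and 86 CPM against 261.2, 272.5, 90.3 and 115.9 CPM.

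**Figure D4:**
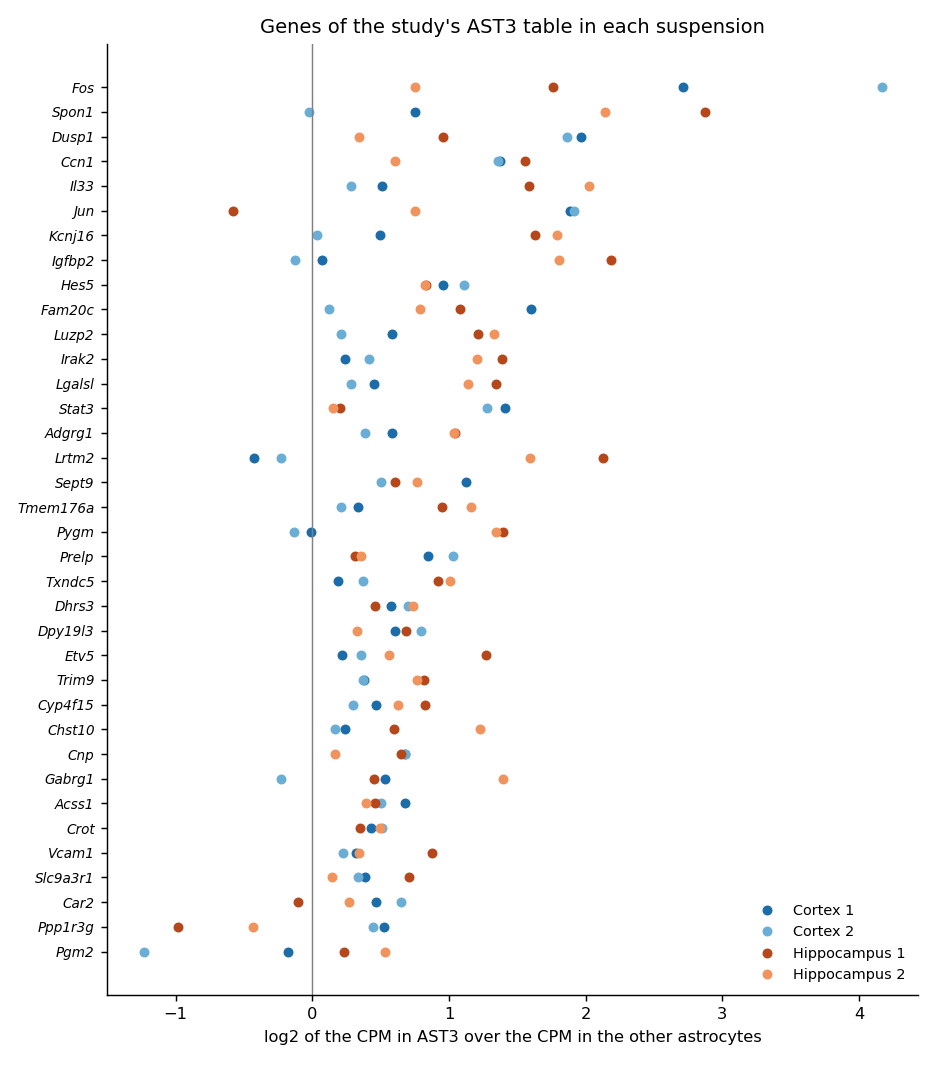
Log2 ratio of the CPM in AST3 to the CPM in the other astrocytes (x axis) for the 36 genes of the study's AST3 table (y axis), with a point for each suspension and a line at no difference. Of the 36 genes, 27 have all 4 points to the right of the line, and Fos reaches furthest.

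Of 38 tested genes of fatty acid oxidation and acyl transfer, 30 of them frequent, 13 were higher in 4 of 4 suspensions and 2 lower, with a median of 0.16, where 11.3% of all frequent genes were higher and 8.71% lower. Acss1, which makes acetyl-CoA from acetate in mitochondria, lay at 629.5, 552.96, 578.3 and 500.8 CPM against 392.4, 390.1, 420.2 and 382.3 CPM. Crot, the peroxisomal carnitine octanoyltransferase, lay at 552.9, 631.2, 366.1 and 413.4 CPM against 411.4, 442.4, 287.6 and 292.9 CPM, and Acadl and Acaa2, enzymes of the oxidation cycle, differed by 0.40 and 0.37. Oxct1, which activates ketone bodies, was lower in each suspension (-0.33). Of 24 glycogen genes, 7 were higher and 2 lower (median 0.04), among them Pgm1, which links glucose 1-phosphate to glycolysis, at 631.6, 718.2, 692.1 and 631.7 CPM against 518.6, 538.3, 417.6 and 376.7 CPM, and Gys1, glycogen synthase, at 74.4, 144.1, 115.1 and 128.7 CPM against 60.4, 91.1, 72.7 and 69.9 CPM. Of 21 glycolysis and lactate genes, 5 were higher and 0 lower (median 0.07). Dhrs3 (chr4:144892827-144928209), which reduces retinal to retinol, lay at 1051, 1158, 1026 and 1336 CPM against 705.7, 713.6, 747.4 and 800.8 CPM, while Aldh1a1, which makes retinoic acid, lay at 57.9, 35.6, 112.8 and 88 CPM against 110.4, 118.1, 225.4 and 187.5 CPM, lower in each suspension.

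Genes by which astrocytes act on synapses were described list by list. Of 17 genes of glutamate uptake and receptors, 2 were higher in 4 of 4 suspensions and 1 lower (median 0.09). Of 20 genes of GABA receptors, transport and breakdown, 4 were higher in 4 of 4 suspensions and 0 lower (median 0.02). Of the 20, 9 were frequent. Of all genes tested 4.86% were higher and 9.86% lower, and of the frequent ones 11.3% and 8.71%. Slc6a11, a GABA transporter of astrocytes, lay at 221.9, 194.5, 299.9 and 340.98 CPM against 206.7, 192.3, 192.4 and 216.7 CPM, and Abat, which breaks GABA down, at 345.5, 367.8, 469.8 and 418.8 CPM against 332.2, 361.9, 258.4 and 258.6 CPM. In both the gap was wider in hippocampus than in cortex. With AST1 and AST2 given equal weight in place of all other astrocytes, the difference of Slc6a11 was -0.08 in place of 0.35. Of 23 secreted regulators of synapse formation, 8 were higher and 3 lower (median 0.22), with Gpc4, a glypican that promotes synapses, at 82.5, 52.4, 115.9 and 82 CPM against 53.8, 38.2, 45.5 and 61.9 CPM, and the perineuronal matrix proteins Bcan and Ncan higher by 0.26 and 0.32. Of 23 potassium, bicarbonate and sodium pump genes, 3 were higher and 4 lower (median 0.02). Kcnj16, a subunit of inward rectifier potassium channels, lay at 312.8, 337.7, 662.6 and 629.4 CPM against 222.2, 329.3, 213.8 and 182.4 CPM, and Kcnk1, a leak channel, was lower in each suspension (-0.29).

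Of the innate immune list, 5 of 34 tested genes were higher in 4 of 4 suspensions and 1 lower (median -0.10). Of the 34, 11 were frequent. Of all genes tested 4.86% were higher and 9.86% lower, and of the frequent ones 11.3% and 8.71%. Il33 was among the 5 higher genes. Irak2, a kinase of the interleukin-1 receptor family to which the receptor of IL-33 belongs, lay at 173.03, 222.6, 225.2 and 220.5 CPM against 146.6, 167.2, 86 and 95.6 CPM. Stat3, a transcription factor of reactive astrocytes, lay at 179.9, 182.8, 130.6 and 124.2 CPM against 67.6, 75.2, 113.6 and 111.6 CPM, with a wide gap in cortex and a narrow one in hippocampus. Etv5 and Fgf1 were the 2 of 17 genes around the FGF receptors that were higher in each suspension, and Agt was the only such gene of the 10 tested in the renin-angiotensin list. Ace, the enzyme that makes angiotensin II, had a count in 0 of 452 AST3 cells, which allows a share of up to 0.664%.

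Named only through the 1.28-fold rule, and after their values were seen, were genes outside the lists. Angptl4, a secreted inhibitor of lipoprotein lipase, lay at 94.3, 108.9, 295.4 and 174.1 CPM in AST3 and 56.7, 62.8, 77.7 and 64.5 CPM in the other astrocytes. Camk2d, a calcium-dependent kinase, lay at 139.9, 148.3, 151.5 and 104.9 CPM against 75.1, 72, 92.8 and 71.7 CPM, and Zfp467, a zinc finger protein, at 112.01, 85.4, 96.4 and 57.6 CPM against 69.7, 60.6, 34.1 and 24.6 CPM. In the other direction, Lars2, the mitochondrial leucyl-tRNA synthetase, lay at 26.7, 27.5, 26.6 and 31.9 CPM against 50.5, 57.4, 50.6 and 51.3 CPM. Slc20a1, a phosphate transporter, lay at 208.6, 155.8, 146.1 and 176.4 CPM against 273.97, 254.03, 219.9 and 249.9 CPM.

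Genes of the mitochondrial genome were lower in AST3. The 13 protein-coding genes summed to 21726, 21522, 25943 and 25614 CPM in AST3 and 31021, 29886, 28291 and 29138 CPM in the other astrocytes, without overlap and with the wider gap in cortex. Of the 13, 10 were lower in 4 of 4 suspensions and 0 higher (median -0.35), among them mt-Nd1, a subunit of complex I, at 2899, 2752, 4708 and 4869 CPM against 4294, 4223, 5014 and 5367 CPM. Of a sample of 20 ribosomal protein genes, 4 were lower and 0 higher (median -0.28), a difference that lay in hippocampus (1442 and 1404 against 2115 and 2012 CPM summed) and not in cortex (1811 and 1643 against 1831 and 1622 CPM). Of all frequent genes, 8.71% were lower in 4 of 4 suspensions and 11.3% higher. Hsd11b1 was lower in each suspension, at 439.5, 336.7, 664.2 and 674.9 CPM against 615.98, 563.5, 1331 and 1508 CPM.

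Within AST3, cells of the hippocampus and cortex were compared with a test, since region was a label that the clustering did not use. Which cells of each region carry the name AST3 was nonetheless set by clustering these counts. The levels compared are therefore not independent of that choice. With 2 suspensions a side, edgeR called 0 of 14960 genes (0%), with 1547 (10.3%) under 0.05 unadjusted and a lowest adjusted p of 0.38. DESeq2 called 1604 (679 higher in hippocampus, 925 lower). Over the 3076 frequent genes alone, settings added after the data were seen, edgeR called 75 (49 higher, 26 lower) and limma on mean log values called 28 higher and 79 lower (3.48%), of which 48 were shared (64% of the first and 44.9% of the second). Genes named below were called in both of these fits, whose adjusted p-values are given, except where said.

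Hippocampal AST3 cells held more Agt, Sparc, Spon1, Gfap, Slc4a4 and Kcnj16. Sparc (chr11:55394500-55423183), a matrix protein that opposes synapse formation, lay at 106.2, 97.5, 546.4 and 724.4 CPM (log2 difference 2.64, SE 0.19, adjusted p = 0.0014 in edgeR and 0.015 in limma). Agt differed by 1.81 (SE 0.16, adjusted p = 0.0014 in edgeR and 0.017 in limma), Spon1 by 1.64 (adjusted p = 0.0036 in edgeR and 0.017 in limma) and Gfap by 1.49 (adjusted p = 0.0054 in edgeR and 0.023 in limma). Slc4a4 (chr5:88886818-89239653), the sodium bicarbonate cotransporter, lay at 369.1, 401.9, 865.8 and 799.7 CPM (1.11, adjusted p = 0.0036 in edgeR and 0.024 in limma), and Kcnj16 differed by 0.99 (adjusted p = 0.0081 in edgeR and 0.024 in limma). Gjb6, which encodes connexin 30, and Adgrg1 differed by 0.63 and 0.64, and mt-Nd1 by 0.76. Cortical AST3 cells held more Hes5 (-0.91, adjusted p = 0.026 in edgeR and 0.018 in limma), Kcnk1 (-0.84, adjusted p = 0.011 in edgeR and 0.043 in limma), Ppp1r3g (-2.50, adjusted p = 0.0053 in edgeR and 0.015 in limma) and Chrdl1, a secreted protein that promotes mature synapses, at 327.5, 384.2, 79.9 and 36.2 CPM (-2.61, adjusted p = 0.0098 in edgeR and 0.015 in limma). The log2 differences are those of the fit over all genes. limma's differences of mean log values were smaller, at 1.64 for Sparc, 0.87 for Spon1, 0.83 for Gfap, -1.24 for Ppp1r3g and -0.98 for Chrdl1. Ccn1 (-0.72) and Dusp1 (-0.80) were lower in hippocampus with all cells (-1.70 and 0.20 without the cells with Fos, so that Dusp1 changed direction), called in that edgeR fit but not in limma (adjusted p = 0.073 and 0.11). Of the other markers, Il33 (0.28), Gabrg1 (0.49) and Etv5 (0.75) were called in neither.

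**Figure D5:**
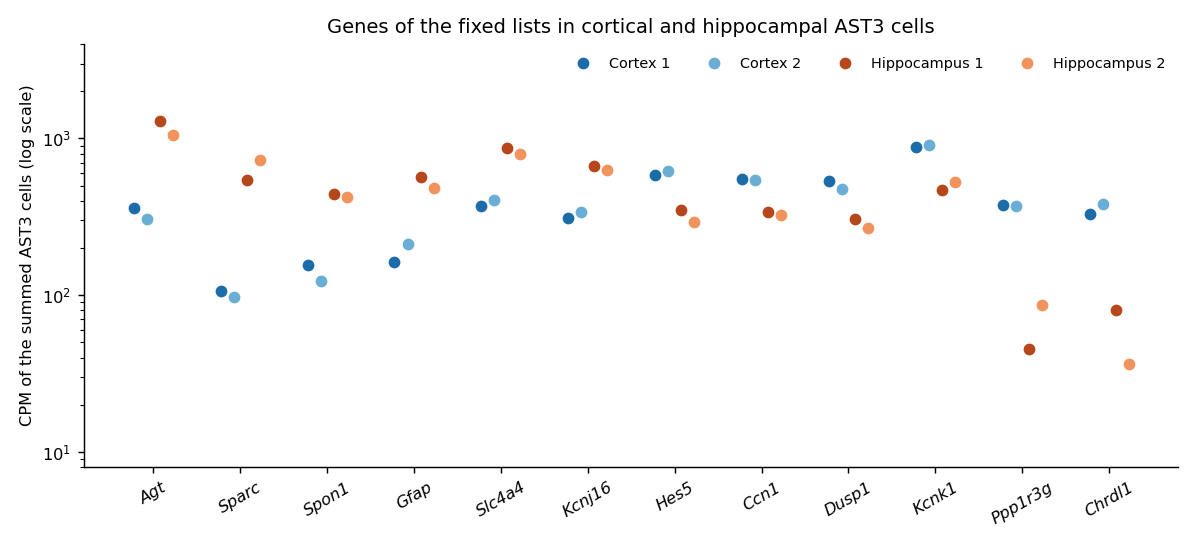
Level of 12 genes in AST3 cells (y axis, CPM of the summed AST3 cells on a log scale), with a point for each suspension. Agt, Sparc, Spon1, Gfap, Slc4a4 and Kcnj16 are higher in both hippocampal suspensions, and Hes5, Ccn1, Dusp1, Kcnk1, Ppp1r3g and Chrdl1 in both cortical ones.

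How AST3 differed from the other astrocytes depended on the region for several genes in fits over frequent genes, and the others were mostly AST2 in cortex and mostly AST1 in hippocampus, while AST3 lay above AST1 in Igfbp2 in both regions. The part of that makeup in the interactions was not tested. Both sides carry names made by clustering these counts, so the interaction fits and their adjusted p-values are a description. edgeR called 0 of 19132 genes for the interaction (0%), with 1226 (6.41%) under 0.05 unadjusted, and DESeq2 called 1433 (536 larger in hippocampus, 897 smaller). Over frequent genes edgeR called 150 (95 larger in hippocampus, 55 smaller) and limma 5.66% of the genes, of which 71 were larger and the rest, the greater part, smaller, with 105 shared by both tools. The difference of AST3 was larger in hippocampus for Igfbp2 (log2 2.02, adjusted p = 0.001 in edgeR and 0.002 in limma), Spon1 (2.14, adjusted p = 0.013 in edgeR and 0.0084 in limma), Il33 (1.41, adjusted p = 0.0096 in edgeR and 0.044 in limma) and Kcnj16 (1.44, adjusted p = 0.0075 in edgeR and 0.0076 in limma). limma's interactions on mean log values were 0.99 for Spon1 and 0.64 for Il33. Hes5 (interaction -0.20), Mfge8 (0.13), Dhrs3 (-0.04), Acss1 (-0.17) and Agt (-0.30) had smaller interactions, with SEs of 0.12, 0.07, 0.14, 0.12 and 0.14.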

How the data were processed

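Single-cell Smart-seq2 libraries of 4 suspensions were used, with groups taken from the labels. Per the paper's methods and the labels, the authors aligned reads with STAR 2.5.2b to GRCm38.p5 (Gencode M12) and counted reads per gene with HTSeq. The deposited files hold raw counts per gene and ERCC spike-in for each cell. HTSeq's own lines for reads without a gene were left out of library sizes. Cell types came from the authors' list, and 33 cells that were not matched to it by name were not used. The typed astrocytes here are fewer than those the study counted. There were 0 columns of other samples. The members and gene lists were chosen with earlier results of these data known. Gene symbols came from a table that matched 49326 of 49671 identifiers, and positions from a Gencode annotation of GRCm38.

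Counts were summed per suspension and subtype and tested with edgeR 4.0.16 (R 4.3.3; TMM, filterByExpr, robust quasi-likelihood, Benjamini-Hochberg), with the suspension as a term within suspensions. DESeq2 1.42.0 and limma 3.58.1 (mean log2 of counts per 10000 plus 1) were alternatives, as were RLE factors, no filter, equal depth, other weights, no Fos cells, and each suspension left out. The limma fit and an edgeR fit of the 3076 genes in more than 25% of cells were added after the data were seen. Summed AST3 depth was 108183293 to 268403731 counts. Reads carry no molecular identifiers, so intervals and limits cover counting error only. Cells were not filtered further and no doublet caller was run. The fits were also run on simulated counts with a fixed spread, set below the common spread estimated in these data. That run therefore cannot bear on how many genes were called here. Named genes were the 4 markers, the study's AST3 table, genes of the fixed lists, called genes, and others where the text says they were chosen after their values were seen. Region numbers 1 and 2 did not pair the suspensions (correlation of deviations 0.0302 over 3076 genes). The result of one item is not reported here.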

Additional observations from a re-analysis of the deposited data

Results flagged for a closer look

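One suspension stood apart from the other 3 in 2 of 76 values tested, where chance gives about 5% (1 in 20). These values were AST3 to other ratios of genes named here and differences in the readouts per cell. Hey1, a Notch target, was 1.15, 1.13, 1.15 and 1.26 times as high in AST3 as in the other astrocytes in Cortex 1, Cortex 2, Hippocampus 1 and Hippocampus 2. Cnp, a myelin enzyme that astrocytes also hold, was 1.60, 1.60, 1.57 and 1.12 times as high. Hippocampus 2 was the suspension apart in both.

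For 10 genes AST3 differed from the other astrocytes in opposite directions in cortex and hippocampus, where the others are mostly AST2 and mostly AST1, a makeup whose part was not tested. Only genes named here were searched, and the share over all genes was not taken, so nothing is read from the number 10. None of the 10 passed edgeR's interaction test over all 19132 genes (adjusted p from 0.533 to 0.701). All 10 passed it among the 3076 frequent genes and passed limma's, both settings added after the data were seen. The 10 were picked for their opposite directions in these same values, so passing restates that choice and is no separate evidence. Higher in AST3 in hippocampus and lower in cortex were Lrtm2 (interaction 2.19 on the log2 scale), Dusp6 (1.99), Pygm (1.44) and Gjb6 (1.11). The reverse held for Gfap (-1.59), Ppp1r3g (-1.19), Clu (-1.08), Cst3 (-0.82), Pygb (-0.80) and Apoe (-0.55). On mean log values limma gave 1.11 for Lrtm2, 0.71 for Dusp6, 0.96 for Pygm and -0.62 for Ppp1r3g. Gjb6, connexin 30, was 0.787, 0.720, 1.62 and 1.64 times as high in AST3, and Clu, the secreted chaperone clusterin, 1.33, 1.32, 0.595 and 0.667 times.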

How the results depend on the processing

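Of the values for single genes under an alternative, 1673 kept their direction and side of the threshold and 27 lost the call. Most that gained a call did so under DESeq2 (87), limma (44) or the fit of frequent genes (42). Another 23, none of them called, changed direction. Without the cells with Fos these were Btg2 (-0.22), Dusp1 between regions (0.20) and the interaction of Dusp1 (0.73). Under limma they were Ppp1r3g (0.16), Agt against AST1 (0.31) and the interaction of Agt (0.13). Slc6a11 turned with AST1 and AST2 weighted equally (-0.0795), Apoe with AST1 and AST2 alone among the others (-0.0150), Luzp2 against AST2 among frequent genes (-0.0288), and Pygm against AST2 there (-0.0756), with RLE factors (-0.0255) and under DESeq2 (-0.0243). With 1 suspension left out, Apoe ran from -0.0556 to 0.174, Ppp1r3g from -0.324 to 0.197, Dusp6 from -0.0471 to 0.773, Clu from -0.313 to 0.0940, Agt against AST1 from -0.294 to 0.0235, and against AST2 Luzp2 from -0.0124 to 0.217 and Pygm from -0.0367 to 0.151. These are log2 differences of AST3 against the other astrocytes except where said.

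The share of genes called moved with the tool. For AST3 against all other astrocytes it went from 0% to 6.08% under DESeq2 (1591 genes). Against AST1 it went from 0.0217% (4 genes) to 4.57% under DESeq2 (1169 genes), 0.0117% without a filter (3 genes), 0.0116% at equal depth (2 genes), 0.325% among frequent genes (10 genes), 1.07% under limma (33 genes) and 0 to 0% with 1 suspension left out. Against AST2 it went from 0.00543% (1 gene) to 4.61% under DESeq2 (1178 genes), 0% with RLE factors, 0.130% among frequent genes (4 genes), 0.39% under limma (12 genes) and again 0 to 0% with 1 suspension left out. For region within AST3 it went from 0% to 7.62% under DESeq2 (1604 genes), 2.44% among frequent genes (75 genes) and 3.48% under limma, and for the interaction from 0% to 5.48% (1433 genes), 4.88% (150 genes) and 5.66%. The cause was not tested. With 1 suspension left out, a region had a lone suspension, assumed in those fits to vary like the others, and region and interaction kept 0 calls.

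A replicate block by suspension number gave 0 calls for region within AST3 (755 genes under 0.05 unadjusted). With no replicate block by suspension, the counts were 0 against all others, 5 against AST1, 2 against AST2 (0.0119%) and 0 for the interaction. Suspensions of the same number did not deviate together.

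The hippocampal minus cortical difference in the share of AST3 ran from -15.6 to -12.4 points with 1 suspension left out, and the readouts per cell kept their direction under each alternative. With 4 suspensions, the exact tests cannot pass 0.05.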

Other observations

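Some genes outside the lists differed between hippocampal and cortical AST3 cells, and they were chosen after their values were seen. Naaa (chr5:92257659-92278170 on GRCm38), a lysosomal enzyme that breaks down lipid amides, lay at 682.6, 700.4, 185.3 and 206.2 CPM in the AST3 cells of Cortex 1, Cortex 2, Hippocampus 1 and Hippocampus 2. In the other astrocytes it lay at 530.01, 462.8, 702.4 and 749.7 CPM, higher in hippocampus, so the regions stood in the opposite order there. Within AST3 its log2 difference between hippocampus and cortex was -1.82 (SE 0.11), with an adjusted p of 0.0014 in edgeR's fit of the frequent genes and 0.0057 in limma. Cd38, an enzyme that consumes NAD, lay at 125.5, 94.2, 435.9 and 552.01 CPM in AST3, and its level in the other astrocytes was also higher in hippocampus, at 101.6, 112.5, 324.9 and 378.2 CPM. Itih3, a serum-type protein that binds hyaluronan, lay at 393.2, 388.2, 850.99 and 955.6 CPM in AST3, without overlap between regions, and at 522.6, 599.6, 455.4 and 569.3 CPM in the other astrocytes.

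The summed level of 22 stem and cell cycle genes was 464.1, 437.3, 242.9 and 336.2 CPM in AST3 and 443.9, 385.6, 732.9 and 686.9 CPM in the other astrocytes, so AST3 was the lower one in hippocampus and the higher one in cortex. In hippocampus the other astrocytes included AST4 cells (12.5% and 13.9% of them), and in cortex nearly none (0.651% and 0%).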
